A study of Mus musculus with 12 samples.

Results

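The 9 genes described here are Wt1, Tbx18, Aldh1a2, Upk3b, Upk1b, Krt8, Krt18, Krt19 and Lrrn4. They are used as markers of the epicardium, and their rows were taken by symbol from a table of 41214 genes. All 9 were among the 15171 genes that were abundant enough to be tested. The libraries are bulk RNA-seq of endothelial cells sorted from ventricles of mouse embryos, after removal of the atria and the aortic region. Each of the 12 libraries is either endocardial, from the lining of the heart chambers, or coronary, from the vessels of the ventricular wall. The question put to the data was whether Wt1 follows the other epicardial genes.

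The E13 groups hold 4 endocardial and 4 coronary libraries from E13.5 embryos that carry 1 copy of Nes-gfp, a green fluorescent protein (GFP) reporter under nestin regulatory sequence. The E17 groups hold 2 endocardial and 2 coronary libraries from E17.5 embryos that carry Nes-Gfp together with Nes-CreER and the R26 tomato allele (tom/+), with 0.1 ug of tamoxifen given at E15.5. Both populations are described as enriched for their cell type, not as pure. Sorted cells were alive, without Ter119 and CD45, and positive for CD31. At E13 the endocardial gate asked for low GFP and high endomucin and the coronary gate for GFP. At E17 the endocardial gate is given as GFP-positive, and 2 coronary gates with low endomucin are described, for arteries with capillaries and for veins. Which gate supplied the E17 coronary libraries is not stated. Stage can therefore not be told apart from the added alleles, tamoxifen, the gates and the batch, since each of the 6 batches holds 1 endocardial and 1 coronary library of 1 stage. Since no label ties replicates to litters, the spread behind each p-value is that between libraries and may be technical.

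The epicardium is the mesothelial sheet on the outside of the heart. Some of its cells lose their epithelial form, enter the wall and give rise to fibroblasts and mural cells. Wt1 encodes a zinc finger transcription factor that is known for its role in the epicardium and is also known to be present in part of the coronary endothelium. Tbx18 encodes a T-box transcription factor of the epicardium that is also found in mural cells. Aldh1a2 encodes the enzyme that makes retinoic acid from retinal. Krt8, Krt18 and Krt19 encode keratins of simple epithelia, Upk3b and Upk1b encode uroplakins, which are membrane proteins of the urothelium and of mesothelia, and Lrrn4 encodes a leucine-rich repeat protein of mesothelial cells.

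The Wt1 gene lies on GRCm38 chr2:105126529-105173616 on the plus strand. Its transcripts differ by 9 bases that a shifted splice donor adds between the third and the fourth zinc finger. These bases give the forms known as with and without KTS, which differ in DNA binding. The sequences below come from GENCODE vM21 transcripts, 5′ to 3′, and are shown because the count table sums both forms into 1 value. The capitals mark the 9 added bases. The form with them is in 5 of the 7 protein-coding transcripts annotated for the gene, and the form without them in 2.
Wt1 with KTS: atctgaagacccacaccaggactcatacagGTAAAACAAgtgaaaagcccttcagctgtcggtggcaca
Wt1 without KTS: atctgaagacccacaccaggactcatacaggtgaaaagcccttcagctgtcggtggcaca

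On the same build the other genes lie at chr9:87702800-87731260 on the minus strand (Tbx18), chr9:71215789-71296243 on the plus strand (Aldh1a2), chr5:136038496-136046487 on the plus strand (Upk3b) and chr16:38773184-38800328 on the minus strand (Upk1b). Krt8 lies at chr15:101996698-102004482 on the minus strand, Krt18 at chr15:102028180-102032027 on the plus strand, Krt19 at chr11:100140810-100148665 and Lrrn4 at chr2:132868305-132880891, both on the minus strand.

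Levels are in CPM, counts relative to TMM-scaled library size, and differences are log2 fold changes ± SE from edgeR's quasi-likelihood test, adjusted over all 15171 genes. A gene passed at an adjusted p under 0.05. Total expected counts ran from 14973633 to 27360653 per library. All 10 pan-endothelial marker genes were present in every group. Their summed levels ran from 5997 CPM in E13 coronary replicate 3 to 13340 CPM in an E17 coronary library. Marker genes of other cells were present as well. In E13 coronary replicate 3 the summed level of 11 fibroblast genes, 7049 CPM, was above the pan-endothelial sum. Ptprc, the gene of CD45, had 21 counts in all, but other blood cell genes were present. The summed level of 8 leukocyte genes ran from 3.85 CPM in an E17 coronary to 23.8 CPM in an E17 endocardial library. That of 8 erythroid genes ran from 21.2 CPM in an E13 endocardial to 781 CPM in an E13 coronary library. In bulk libraries fewer cells of a type and less RNA per cell cannot be told apart.

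Wt1 was a coronary gene at both stages. Its level in the E13 endocardial libraries was 8.68, 9.70, 4.80 and 4.88 CPM in replicates 1 to 4. In the E13 coronary libraries it was 76.9, 55.95, 39.8 and 52.2 CPM. The lowest coronary library was thus above the highest endocardial one. The coronary minus endocardial difference at E13 was 2.98 ± 0.25 (edgeR adjusted p = 8.39e-07). From pooled counts, 4482 against 611, the ratio was 8.33, with a 95% exact interval from 7.66 to 9.08 that covers counting error only. Ratios from pooled counts, their intervals and count floors, here and below, are relative to total counts without TMM scaling.

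At E17 Wt1 stood at 8.24 and 11.3 CPM in the endocardial libraries and at 103 and 134 CPM in the coronary libraries. The groups did not overlap, and the difference was 3.61 ± 0.36 (edgeR adjusted p = 3.74e-06). Both E17 coronary libraries were above all 4 E13 coronary libraries. The rise from E13 to E17 in coronary libraries was 1.08 ± 0.25 (edgeR adjusted p = 0.00368). This call rested on the second E17 coronary library, since without it the value was 0.87 with an adjusted p of 0.0596. Endocardial Wt1 levels overlapped between stages, with a difference of 0.45 ± 0.34 (edgeR adjusted p = 0.347). The change of the coronary minus endocardial difference between stages, 0.63 ± 0.43, did not pass (edgeR adjusted p = 0.292).

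**Figure D1:**
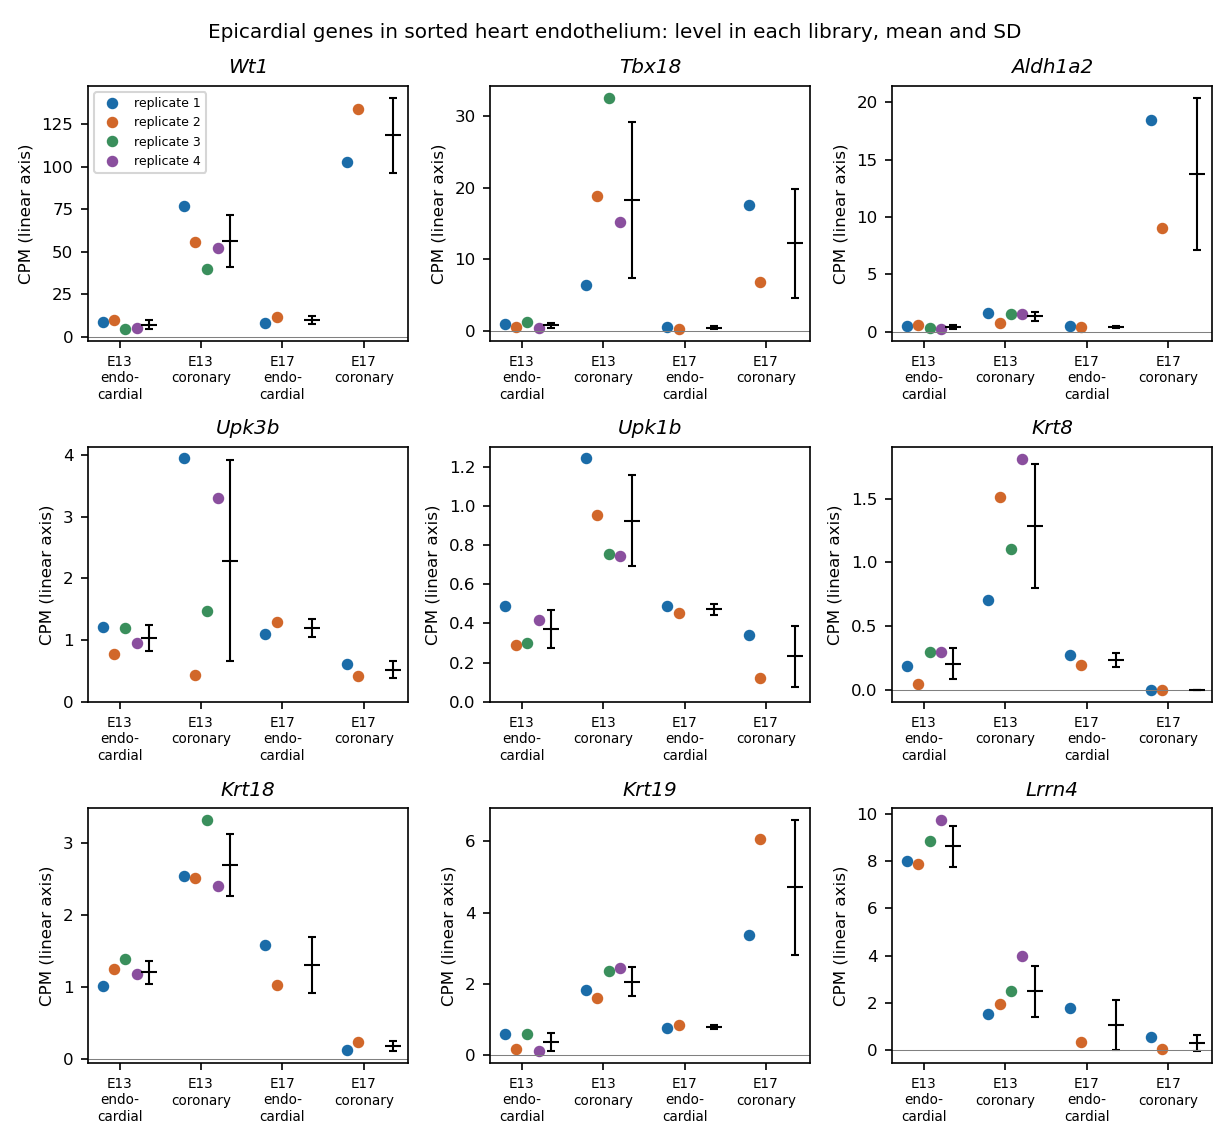
Level of each of the 9 genes in every library, in CPM on a linear axis that differs between panels. Points are libraries, coloured by replicate, and the black bar beside each group is its mean with SD (n = 4 at E13, n = 2 at E17). Wt1 lies between 39.8 and 134 CPM in the 6 coronary libraries and at or below 11.3 CPM in the endocardial ones, whereas Krt8 is at 0 in both E17 coronary libraries.

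Tbx18 varied widely among coronary libraries of 1 stage. It stood at 0.978, 0.63, 1.23 and 0.357 CPM in E13 endocardial and at 6.38, 18.9, 32.6 and 15.2 CPM in E13 coronary libraries, with a difference of 4.47 ± 0.54 (edgeR adjusted p = 1.66e-05). At E17 it was 0.615 and 0.325 CPM in endocardial and 17.6 and 6.89 CPM in coronary libraries, and the difference of 4.67 ± 0.85 passed as well (edgeR adjusted p = 0.000572). The E17 coronary values lay within the E13 coronary range, and the stage difference of -0.58 ± 0.53 did not pass (edgeR adjusted p = 0.388). Without the first E17 coronary library the E17 difference was 3.87. Tbx18 counts were whole numbers in 3 of 12 libraries, against 12 of 12 for each other member, so part of its reads was divided with other genes in the deposited estimates.

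Aldh1a2 was low at E13 and higher in E17 coronary libraries. Its levels were 0.489, 0.576, 0.35 and 0.238 CPM in E13 endocardial libraries, and 1.62, 0.78, 1.51 and 1.55 CPM in E13 coronary ones. These groups did not overlap (1.67 ± 0.36, edgeR adjusted p = 0.00144). Aldh1a2 was abundant enough to be tested through the coronary groups, so its coronary excess was favoured by the filter. At E17 the endocardial libraries had 0.491 and 0.389 CPM and the coronary libraries 18.4 and 9.05 CPM, a difference of 4.93 ± 0.49 (edgeR adjusted p = 4.19e-06). Aldh1a2 rose from E13 to E17 in coronary libraries by 3.33 ± 0.33 (edgeR adjusted p = 5.69e-06), or by 2.73 without the first E17 coronary library. In endocardial libraries the stage difference was 0.07 ± 0.51 (edgeR adjusted p = 0.939). The coronary minus endocardial difference of Aldh1a2 thus changed between stages, by 3.26 ± 0.61 (edgeR adjusted p = 0.00153), or 2.66 without the first E17 coronary library.

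The 3 keratin genes parted between stages. Krt8 and Krt18 encode partners that pair into filaments, and the genes are neighbours on chromosome 15, pointing away from each other across 23697 bases with 0 annotated genes between them. Krt8 had 0.188, 0.048, 0.3 and 0.297 CPM in E13 endocardial and 0.703, 1.52, 1.11 and 1.81 CPM in E13 coronary libraries. It was higher in the coronary ones by 2.62 ± 0.49 (edgeR adjusted p = 0.000715). Krt8 was abundant enough to be tested through the E13 coronary libraries alone. Its differences from that group were thus favoured by the filter. At E17 it had 8 counts in the endocardial libraries and 0 in the coronary libraries, a count that allows up to 0.0917 CPM. With E17 coronary Krt8 set at a floor of 3 counts over the group, it was 15.1-fold lower than in E13 coronary libraries. Against E17 endocardial libraries it was 2.45-fold lower. These values leave out the counting error of the group compared. The 95% exact intervals from pooled counts start lower, at 12.03-fold and 1.571-fold in the same order. The first of these differences passed with an edgeR adjusted p of 0.000352. The second passed at 0.0188 and was lost at 0.0641 without the first E17 endocardial library, and at 0.063 and 0.0788 without the first and the second E17 coronary library.

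Krt18 stood at 1.01, 1.25, 1.4 and 1.19 CPM in E13 endocardial and 2.54, 2.51, 3.33 and 2.4 CPM in E13 coronary libraries, without overlap (1.15 ± 0.22, edgeR adjusted p = 0.000702). At E17 the order turned, with 1.58 and 1.04 CPM in endocardial and 0.137 and 0.24 CPM in coronary libraries (-2.74 ± 0.43, edgeR adjusted p = 0.000166). From E13 to E17 it fell by 3.77 on the log2 scale in coronary libraries (SE 0.38, edgeR adjusted p = 6.71e-06). Pooled counts went from 216 to 6, a ratio of 15.6 relative to total counts, with a 95% exact interval from 7.07 to 43.1. Endocardial Krt18 did not pass between stages (0.12 ± 0.28, edgeR adjusted p = 0.787). The coronary minus endocardial difference changed by -7.83 ± 1.58 for Krt8 and -3.90 ± 0.48 for Krt18 (edgeR adjusted p = 0.00306 and 7.51e-05). Krt8 and Tbx18 each overlap an annotated gene on the opposite strand, Gm36026 and D030062O11Rik, and use of strand in the counting is not stated, so reads of the overlapping stretches cannot be assigned. The fitted values of Krt8 at E17 depend on the prior count, because its coronary count is 0.

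Krt19, the smallest of the keratins and one that lacks a tail domain, went the other way from Krt8 and Krt18 at E17. Its levels were 0.601, 0.192, 0.6 and 0.119 CPM in E13 endocardial libraries, and 1.84, 1.6, 2.37 and 2.45 CPM in E13 coronary ones (2.38 ± 0.41, edgeR adjusted p = 0.000297). At E17 it stood at 0.764 and 0.843 CPM in endocardial and 3.36 and 6.05 CPM in coronary libraries (2.55 ± 0.54, edgeR adjusted p = 0.00173). Neither stage had overlap between the populations. The rise in coronary libraries from E13 to E17 (1.19 ± 0.41, edgeR adjusted p = 0.029) was lost without E13 coronary replicate 1 (adjusted p = 0.0505), E13 coronary replicate 2 (adjusted p = 0.0685) or E17 coronary replicate 2 (0.70, adjusted p = 0.345).

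The 250 bases before the RefSeq start of Krt8 and of Krt18 are shown because both genes fell in coronary libraries between the stages. They are from GRCm38.p6, 5′ to 3′ on each gene's own strand, at chr15:102004343-102004592 (minus) for Krt8 and chr15:102027966-102028215 (plus) for Krt18. Nothing is capitalised, since none of the letters searched occurs there. Each stretch reaches into the gene span given above, which is from GENCODE vM21, because the RefSeq start lies inside that span.
Krt8: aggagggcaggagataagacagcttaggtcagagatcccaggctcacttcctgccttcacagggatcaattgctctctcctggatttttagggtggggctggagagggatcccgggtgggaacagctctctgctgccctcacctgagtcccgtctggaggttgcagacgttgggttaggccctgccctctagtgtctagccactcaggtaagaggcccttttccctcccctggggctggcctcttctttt
Krt18: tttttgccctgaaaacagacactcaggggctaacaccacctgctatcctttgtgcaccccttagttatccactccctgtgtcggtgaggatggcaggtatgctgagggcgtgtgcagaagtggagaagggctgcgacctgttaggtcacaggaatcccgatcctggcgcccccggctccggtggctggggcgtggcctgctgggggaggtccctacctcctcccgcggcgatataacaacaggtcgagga

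Promoter windows of 300 bases were matched by symbol for 6 of the 9 genes (Tbx18, Aldh1a2, Upk3b, Krt8, Krt18 and Lrrn4) and searched on both strands for 3 sets of letters. The letters GCGGGGGCG, of the type bound by Wt1 and Egr proteins, are in 2.91% of all 32851 windows of the RefSeq table. The shorter GTGGGAG, a core of Wt1 motifs, is in 9.73%, and the T-box letters AGGTGTGA are in 1.28%. No 2 of these 3 words contain each other. None of the 6 windows holds any of them, which says only that these letters are not in these windows. The share of G and C ran from 51.7% in the Tbx18 window to 78.0% in the Aldh1a2 window.

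The uroplakin genes were low. Upk3b stood at 1.2, 0.769, 1.2 and 0.952 CPM in E13 endocardial and at 3.95, 0.433, 1.46 and 3.31 CPM in E13 coronary libraries. The second coronary library lay below all endocardial ones, and the difference of 1.13 ± 0.51 did not pass (edgeR adjusted p = 0.0735). It passed without that library, at 1.5 with an adjusted p of 0.00261. At E17 Upk3b had 1.09 and 1.3 CPM in endocardial and 0.617 and 0.419 CPM in coronary libraries (-1.20 ± 0.83, edgeR adjusted p = 0.248). The fall in coronary libraries between stages (-2.13 ± 0.73, edgeR adjusted p = 0.0296) was lost at 0.0935 when only the coronary groups were fitted, and by leaving out any of 4 coronary libraries. Those were E13 replicate 1 (0.056), E13 replicate 4 (0.0602), E17 replicate 1 (0.0877) and E17 replicate 2 (0.176). The change of its difference between stages (-2.33 ± 0.97, edgeR adjusted p = 0.0885) passed without E13 coronary replicate 2 (adjusted p = 0.00707).

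Upk1b had 0.489, 0.288, 0.3 and 0.416 CPM in E13 endocardial and 1.24, 0.953, 0.756 and 0.747 CPM in E13 coronary libraries, which did not overlap (1.28 ± 0.36, edgeR adjusted p = 0.00777). Upk1b was abundant enough to be tested through the E13 coronary libraries alone, so its differences from that group were favoured by the filter. At E17 it had 16 counts in endocardial and 7 in coronary libraries (-1.04 ± 0.60, edgeR adjusted p = 0.167), or 0.491 and 0.454 against 0.343 and 0.12 CPM. From 74 counts to 7, a ratio of 4.59 relative to total counts (95% exact interval from 2.12 to 11.8), it fell in coronary libraries between stages. The log2 fold change was -2.0 ± 0.52 (edgeR adjusted p = 0.00641). Without E17 coronary replicate 1 the value was -2.88, and without E17 coronary replicate 2 the call was lost (-1.41, adjusted p = 0.0989). The change of the coronary minus endocardial difference, -2.33 ± 0.70, passed (edgeR adjusted p = 0.023), but not without E17 endocardial replicates 1 or 2 (adjusted p = 0.0784 and 0.0554), without E17 coronary replicate 2 (-1.74, adjusted p = 0.127) or without the filter on low counts (0.0528). Without E17 coronary replicate 1 it was -3.21. Of the 6 uroplakin genes in the table, Upk1b and Upk3b were the ones abundant enough to be tested. Upk2 and Upk3a had 0 counts in all 4 groups.

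Lrrn4 was the member with an endocardial excess at E13. It stood at 8.01, 7.88, 8.85 and 9.75 CPM in E13 endocardial and 1.51, 1.95, 2.52 and 4 CPM in E13 coronary libraries (-1.79 ± 0.39, edgeR adjusted p = 0.00178). Every E13 endocardial library was above every coronary one. At E17 it had 1.8 and 0.324 CPM in endocardial and 0.549 and 0.0599 CPM in coronary libraries, which overlapped (-1.89 ± 0.86, edgeR adjusted p = 0.0842). That difference passed with the batch as a block (adjusted p = 0.0158), in DESeq2 (0.0278), without E17 endocardial replicate 2 (-2.6, 0.0151) and without E17 coronary replicate 1 (-4.03, 0.0322). Lrrn4 fell between stages in endocardial libraries by 2.97 on the log2 scale (SE 0.57, edgeR adjusted p = 0.00194) and in coronary libraries by 3.07 (SE 0.73, edgeR adjusted p = 0.00398). The endocardial value was -4.71 and -2.26 without E17 endocardial replicates 1 and 2. The coronary value was -5.24 without E17 coronary replicate 1 and was lost without E17 coronary replicate 2 (-2.17, adjusted p = 0.057).

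**Figure D2:**
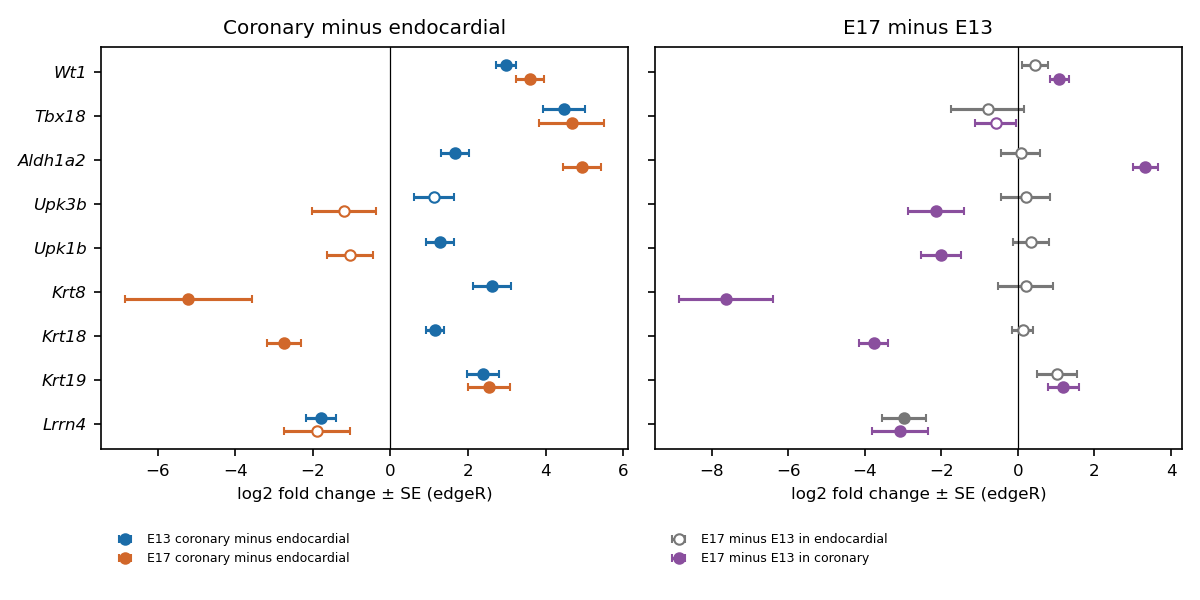
Log2 fold change ± SE of the 9 genes from edgeR, coronary minus endocardial at each stage on the left and E17 minus E13 in each population on the right. Filled points passed an adjusted p of 0.05 and open points did not. Krt8 and Krt18 lie right of 0 at E13 and left of 0 at E17, and Wt1, Tbx18, Aldh1a2 and Krt19 lie right of 0 at both stages. The Krt8 values that involve the E17 coronary libraries rest on a count of 0 there and show no size.

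At E13, where 60.0% of all genes tested passed in either direction, 7 of the 9 genes were higher in coronary libraries, where 30.1% of all tested genes were, and Lrrn4 was lower, where 29.9% were. The median of the 9 was 1.67, against -0.02 for all genes tested. At E17 52.6% of all genes passed, and 4 of the 9 were higher (26.5% of all genes) and Krt8 and Krt18 were lower (26.1%), with a median of -1.04 against -0.01. Between stages 50.1% of all genes passed in coronary libraries, where Wt1, Aldh1a2 and Krt19 were higher (24.6% of all genes) and Upk3b, Upk1b, Krt8, Krt18 and Lrrn4 were lower (25.6%), with a median of -2.0 against -0.02. In endocardial libraries 31.8% of all genes passed between stages, and 1 of the 9, Lrrn4, was lower (15.6%). The coronary minus endocardial difference changed for 32.7% of all genes, and moved up for Aldh1a2 (16.2% of all genes) and down for Upk1b, Krt8 and Krt18 (16.5%). Upk1b and Krt8 reached the level the filter asks for in E13 coronary libraries alone, so they entered the test through the group where they were high. Aldh1a2 reached that level in 4 E13 coronary and 2 E17 coronary libraries, and in 1 E13 endocardial library. It thus entered the test through the coronary groups, where it was high.

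Between genes, levels can be compared per length, in CPM per kilobase of annotated exon. In E13 coronary libraries Wt1 had the highest level, 9.08 ± 2.49, followed by Tbx18 at 3.87 ± 2.31 (SD, n = 4). In replicate 3 that order turned, with Tbx18 at 6.9 and Wt1 at 6.43. Krt18 (1.88 ± 0.296) and Krt19 (1.11 ± 0.222) came next, and Lrrn4, Krt8, Upk3b, Aldh1a2 and Upk1b, from 0.672 down to 0.443, followed with SDs that overlap their neighbours. In E17 coronary libraries Wt1 was at 19.1 ± 3.6 (SD, n = 2), Aldh1a2 at 6.07 ± 2.94, Tbx18 at 2.6 ± 1.61 and Krt19 at 2.54 ± 1.03, and the other 5 were at or below 0.147. In E13 endocardial libraries Lrrn4 led at 2.32 ± 0.234, before Wt1 at 1.13 ± 0.411 and Krt18 at 0.844 ± 0.111. In E17 endocardial libraries Wt1 led at 1.58 ± 0.354, before Krt18 at 0.912 ± 0.268.

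Whether Wt1 kept its proportion to each of the other genes was tested on the log2 ratio of Wt1 to that gene in each library, with 0.1 CPM added to both. Between E13 coronary and endocardial libraries the ratio differed for 5 of the 8 genes, each with an exact two-sided permutation p of 0.0286, the smallest that 4 against 4 allows, and 0.0457 after adjustment over the 8. The adjusted value rests on all 5 genes reaching that smallest p together. Among the 5, Upk1b met the filter level in E13 coronary libraries alone, and Aldh1a2 in coronary libraries and 1 E13 endocardial library. Wt1 gained on Lrrn4 by 4.85, on Upk3b by 2.29, on Krt18 by 1.93, on Upk1b by 1.91 and on Aldh1a2 by 1.5. For Tbx18 the ratio went from 3.03 ± 0.82 in endocardial to 1.8 ± 1.35 in coronary libraries, for Krt8 from 4.56 ± 1.17 to 5.38 ± 0.82 and for Krt19 from 4.01 ± 0.99 to 4.68 ± 0.60 (SD, n = 4). These 3 did not pass (exact permutation adjusted p = 0.261, 0.261 and 0.314). Paired within batches, the 5 genes moved the same way in 4 of 4 batches, where an exact sign-flip test cannot go below 0.125. None of the 5 passed when E13 endocardial replicate 3 or 4 or E13 coronary replicate 2 or 4 was left out.

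At E17 these ratios are given as values with no test, since an exact permutation of 2 libraries against 2 cannot reach the threshold and none was run. The mean log2 ratio of Wt1 to Krt18 was 2.82 in endocardial and 8.69 in coronary libraries, to Upk3b 2.92 and 7.59, and to Upk1b 4.09 and 8.56. To Lrrn4 it was 3.44 and 8.51, and to Krt8, with its count of 0, 4.88 and 10.2. The ratio to Krt19 was 3.44 and 4.67. For Aldh1a2 and Tbx18 it was lower in the coronary libraries, 3.17 against 4.18 and 3.40 against 4.15.

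**Figure D3:**
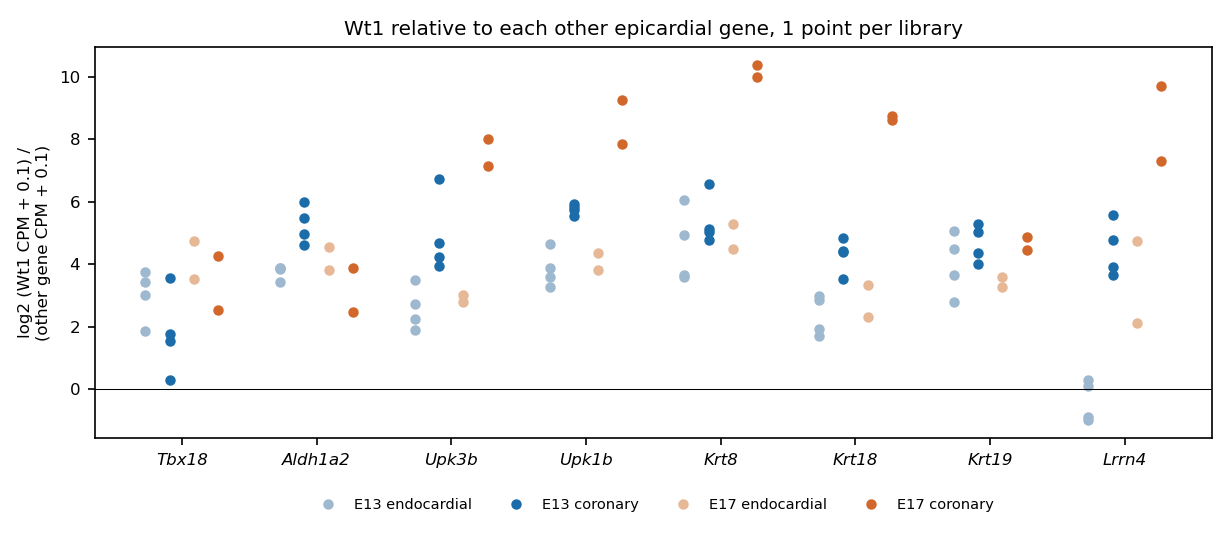
Log2 ratio of Wt1 to each other gene in every library, after adding 0.1 CPM to both, with 1 point per library coloured by group. Against Upk3b, Upk1b, Krt8, Krt18 and Lrrn4 the E17 coronary libraries lie above all others. Against Tbx18 the 4 E13 coronary libraries spread from 0.29 to 3.57.

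Among the E13 coronary libraries themselves, Wt1 and Tbx18 ran in opposite order. Wt1 was highest in replicate 1 and lowest in replicate 3, and replicate 3 differed from replicate 1 by -0.95 on the log2 scale. Tbx18 was lowest in replicate 1 and highest in replicate 3, a difference of 2.35. None of the other 7 genes had replicates 1 and 3 at both ends in either order. Upk3b and Upk1b shared with Wt1 a maximum in replicate 1, as did Aldh1a2, whose minimum was in replicate 2. Krt8 and Lrrn4 were lowest in replicate 1 and highest in replicate 4. Of all 15171 genes tested, 19.0% had the order of Wt1 at the ends and 16.1% that of Tbx18.

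Marker genes of other cells moved with these libraries. All 11 fibroblast genes were lowest in E13 coronary replicate 1 and highest in replicate 3, and their summed level was 2663, 5274, 7049 and 4900 CPM in replicates 1 to 4. Tbx18 had that same order. Of the 11 mural cell genes 7 had these ends, with a summed level from 390.4 CPM in replicate 1 to 777.3 CPM in replicate 3. Of the 10 pan-endothelial genes 8 ran the opposite way, from 8182 CPM in replicate 1 to 5997 CPM in replicate 3, as did 8 of 10 heart capillary genes, from 2226 to 1148 CPM. Wt1 had those ends. No marker of these 4 lists was at 0 in any group, and the part of other cells in the Wt1 and Tbx18 values was not tested.

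In the E17 coronary libraries all 11 fibroblast genes, all 11 mural genes and all 10 cardiomyocyte genes were higher in replicate 1 than in replicate 2, and all 10 pan-endothelial and 10 capillary genes were higher in replicate 2. Tbx18, Aldh1a2, Upk3b, Upk1b and Lrrn4 were higher in replicate 1, and Wt1, Krt18 and Krt19 in replicate 2. These are 5 and 3 of the 9 genes, against 7578 and 7439 of all 15171 genes tested, so the split of the members is near the background. Aldh1a2, Upk3b and Upk1b, which had their E13 coronary maximum in the same replicate as Wt1, were thus higher in the other replicate than Wt1 at E17. Aldh1a2 was at 18.4 CPM beside a fibroblast sum of 5039 CPM and at 9.05 CPM beside 2286 CPM. The E13 coronary libraries did not have that order. There, in replicates 1 to 4, Aldh1a2 was at 1.62, 0.78, 1.51 and 1.55 CPM beside fibroblast sums of 2663, 5274, 7049 and 4900 CPM. In endocardial libraries the fibroblast sum ran from 1980 to 2205 CPM at E13 and from 2433 to 2648 CPM at E17. Of the 11 fibroblast genes, 9 were higher (30.1% of all genes) and 1 lower (29.9%) in coronary libraries at E13. At E17, 5 were higher (26.5% of all genes) and 3 lower (26.1%). Of the 11 mural genes, 7 were higher at E13 (30.1% of all genes) and 9 at E17 (26.5%).

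**Figure D4:**
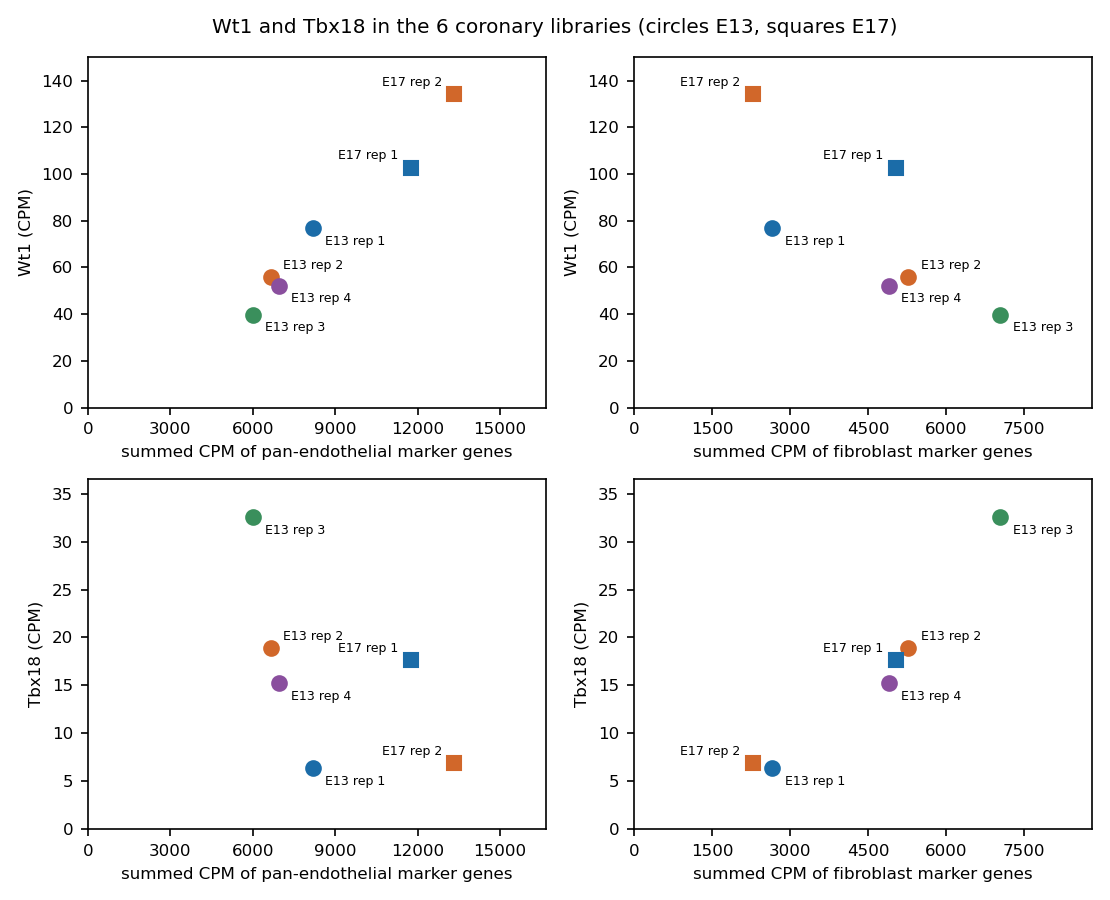
Wt1 (top) and Tbx18 (bottom) in CPM against the summed CPM of 10 pan-endothelial genes (left) and of 11 fibroblast genes (right) in the 6 coronary libraries, with circles for E13 and squares for E17. The library with the lowest pan-endothelial sum, 5997 CPM, has the lowest Wt1, 39.8 CPM, and that with the highest, 13340 CPM, has the highest Wt1, 134 CPM. Between these ends, E13 replicate 4 has a higher sum than E13 replicate 2, 6952 against 6658 CPM, but lower Wt1, 52.2 against 55.95 CPM. In the E13 endocardial libraries, which are not plotted, the sum runs from 8908 to 9908 CPM with Wt1 from 4.80 to 9.70 CPM. Tbx18 is highest, at 32.6 CPM, in the library with the highest fibroblast sum, 7049 CPM.

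The genes whose profile over the 12 libraries lay closest to that of Wt1 were not epicardial members. Likeness was measured as the root mean square difference of log2 CPM profiles, each centred on its own mean. The 12163 genes ranked had a mean of at least 1 CPM. Genes without a symbol and predicted models (symbols of Gm plus digits, or Rik) were left out. The 8 closest were Gprc5b, Galnt12, Pik3cb, Nid2, Cdkl1, Kitl, Pdgfb and Sox17, at distances from 0.29 to 0.36. Whether the 8 share a cell type was not tested. Gprc5b, the closest, stood at 9.83 ± 1.3 and 66.8 ± 10.4 CPM in E13 endocardial and coronary libraries (n = 4). At E17 it stood at 15.7 ± 1.71 and 168.5 ± 11.2 CPM (n = 2). Sox17, in place 8, encodes a transcription factor of arterial endothelium. It stood at 5.62 ± 0.565 and 49.4 ± 15 CPM in E13 endocardial and coronary libraries (n = 4) and at 6.61 ± 0.915 and 134 ± 4.62 CPM at E17 (n = 2). Pdgfb, in place 7, encodes a growth factor made by endothelium. It stood at 15.9 ± 2.43, 155 ± 42.1, 33.8 ± 0.164 and 309 ± 40.7 CPM in the same order. In E13 coronary replicates 1 and 3 Sox17 had 71 and 36.6 CPM, the highest and the lowest of the 4. Sox17 was picked for its likeness to Wt1 over these same libraries, so these shared ends are no separate result. Of all genes tested, 19.0% had them. The distances share library and depth between genes and are a description.

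Among the members Krt19 came closest to Wt1, in place 157 at a distance of 0.75. Aldh1a2 was in place 275 (0.91) and Tbx18 in place 840 (1.23). Upk3b, Krt18 and Lrrn4 were in places 9720, 11261 and 12039, at distances from 1.93 to 3.21. Krt8 and Upk1b had means under 1 CPM and were not ranked.

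Other genes of mesothelium and epicardium were mixed at both stages. Of the 13 genes found, 10 were tested. At E13, 6 of these were higher in coronary libraries (30.1% of all genes) and 2 lower (29.9%), with a median of 2.01. Tcf21, a transcription factor gene of the epicardium and of fibroblasts, rose from 0.163 ± 0.107 to 6.94 ± 3.23 CPM (5.42 ± 0.51, edgeR adjusted p = 1.91e-06). Scx, a transcription factor gene of tendon and of part of the proepicardium, was higher by 5.24 ± 0.42 and Sema3d by 2.84 ± 0.19. Krt7 lay at 1.11 ± 0.71 and did not pass, and the other not to pass was C3. Gpm6a and Nkain4 were lower.

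At E17, 2 of these 10 genes, Tcf21 and Sema3d, were higher in coronary libraries (26.5% of all genes) and 3 lower (26.1%). The median was -0.90. The lower ones were Nkain4 (-4.04 ± 0.20, 40.2 ± 3.38 against 2.46 ± 0.597 CPM), Gpm6a (-3.65 ± 0.27) and Efemp1. C3 did not pass at -1.68 ± 0.90. From E13 to E17 in coronary libraries Tcf21 and Sema3d were higher (24.6% of all genes). Nkain4 (-3.03 ± 0.19), Scx (-4.30 ± 0.53), Efemp1 (-3.36 ± 0.54), Krt7 and Dmkn were lower (25.6%), while Gpm6a lay at -0.57 ± 0.25. Cdh1, the gene of the epithelial cadherin, had 1 count in all 12 libraries. Bnc1 and Rspo1, mesothelial genes too low to be tested, had 1 and 0 counts in the E17 coronary libraries.

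Around Aldh1a2, 14 of 17 other genes of retinoic acid supply, binding, reception and breakdown were tested. At E13, 8 were higher (30.1% of all genes) and 3 lower (29.9%) in coronary libraries (median 1.41). Cyp26b1, which encodes an enzyme that degrades retinoic acid, had the smallest adjusted p, at 3.31 ± 1.01 against 145 ± 20.5 CPM (5.43 ± 0.19, edgeR adjusted p = 1.65e-09). The receptor genes Rara (-0.74 ± 0.06) and Rxra (-0.66 ± 0.06) were lower. At E17, 3 were higher (26.5% of all genes) and 5 lower (26.1%), with a median of 0.10. The receptor gene Rarg was higher by 1.57 ± 0.17 and Rarb lower (-3.13 ± 0.33), while Rxra lay at 0.13 ± 0.08. Between stages in coronary libraries, where Aldh1a2 rose, Cyp26b1 fell to 9.18 ± 0.661 CPM (-3.98 ± 0.24) and Crabp2, a retinoic acid carrier gene, fell as well (-3.82 ± 0.31). Rxra rose by 0.82 ± 0.07 and Rxrb lay at 0.09 ± 0.07. In that comparison 4 were higher (24.6% of all genes) and 6 lower (25.6%), with a median of -0.21.

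Genes that have been reported as Wt1 targets in other settings were split at E13. Of 12 tested, 6 were higher (30.1% of all genes) and 4 lower (29.9%) in coronary libraries (median 0.46). The list holds Aldh1a2 and, in Pecam1, Cdh5 and Kdr, genes of the pan-endothelial list. Nes, the gene whose regulatory sequence drives the reporter used for sorting, was higher by 0.92 ± 0.08, Spry1, a signalling inhibitor gene, by 2.46 ± 0.18 and Ntrk2, a neurotrophin receptor gene, by 4.95 ± 0.51. Ets1 lay at -0.12 ± 0.08. At E17, 9 were higher (26.5% of all genes) and Kit, Snai1 and Itga4 did not pass (median 1.22). Nes lay at 2.07 ± 0.11, Spry1 at 3.15 ± 0.24 and Ets1, an endothelial transcription factor gene, at 1.38 ± 0.11. Kit lay at -0.02 ± 0.11. From E13 to E17 in coronary libraries 9 were higher (24.6% of all genes) and 2 lower (25.6%), with a median of 0.87. Among the higher were Podxl (1.37 ± 0.12), Kdr (1.37 ± 0.13) and Cdh5 (1.02 ± 0.11), while Snai1 lay at -0.32 ± 0.30. Among the 6 genes of proteins that bind Wt1 or its partners, Basp1, which encodes a corepressor, had a coronary excess of 1.95 ± 0.11 at E13, and of 2.29 ± 0.17 at E17. Pawr (-1.33 ± 0.14 and -3.19 ± 0.23) and Cited2 (-0.96 ± 0.10 and -2.11 ± 0.15) were lower, and Wtap lay at -0.02 ± 0.04 and 0.13 ± 0.06.

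Within the T-box family, 8 of 15 genes were tested. At E13, 6 were higher in coronary libraries (30.1% of all genes), Tbx18 among them, with a median of 3.61. Those with the smallest adjusted p were Tbx20 (3.8 ± 0.27, 32.2 ± 0.885 against 449 ± 144 CPM), Tbx3 (3.42 ± 0.34) and Tbx2 (3.29 ± 0.33), while Tbx5 lay at 0.30 ± 0.34. At E17, 5 were higher (26.5% of all genes) and Tbx5 was lower (26.1%). Tbx3 lay at 6.53 ± 0.48, Tbx2 at 5.35 ± 0.45, Tbx20 at 1.85 ± 0.38, T at 3.66 ± 0.68 and Tbx6 at -0.52 ± 0.68. Tbx3 and Tbx2 rose in coronary libraries between stages (3.14 ± 0.28 and 2.61 ± 0.29) and Tbx20 fell (-2.51 ± 0.34).

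Beside the keratins, 9 of 12 genes of simple epithelia and desmosomes were tested. At E13, 4 were higher in coronary libraries (30.1% of all genes) and 3 lower (29.9%), with a median of 0.64. Dsp, the gene of desmoplakin, which anchors intermediate filaments at desmosomes, was higher (2.11 ± 0.17), Dsg2 (-3.76 ± 0.17) and Pkp2 (-1.38 ± 0.08), which encode other desmosome proteins, were lower, and Perp lay at 0.28 ± 0.29. At E17, 1 was higher (26.5% of all genes) and 4 lower (26.1%), with a median of -1.97. Jup was higher by 1.88 ± 0.15. Dsp (-1.97 ± 0.27), Cldn7 (-3.38 ± 0.47), Pkp2 (-3.90 ± 0.14) and Dsg2 (-7.70 ± 0.38) were lower, while Perp lay at -0.22 ± 0.40. In coronary libraries Dsp (-3.29 ± 0.25), Pkp2 (-2.61 ± 0.13) and Dsg2 (-4.19 ± 0.44) fell between stages, as Krt8 and Krt18 did. In that comparison 1 of the 9 was higher (24.6% of all genes) and 6 lower (25.6%), with a median of -2.61. Perp lay at 0.35 ± 0.35. Of 10 endocardial marker genes 9 were lower as well in that comparison. Their summed level in coronary libraries ran from 1503 to 1883 CPM at E13 and from 368 to 393 CPM at E17. Dsg2, Pkp2 and Lrrn4 were higher in endocardial libraries at E13, and the part of endocardial cells in their coronary fall was not tested.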

How the data were processed

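RNA of freshly sorted cells was made into NEBNext Ultra libraries from polyadenylated RNA and sequenced as single reads, per the labels' protocols. The authors deposited expected counts for each gene, of which 18.3% are not whole numbers. CASAVA 1.8.2, cutadapt 1.3 and RSEM 1.2.3 are named with build GRCm38, per the submitters' processing notes, without settings.

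Counts were rounded. Genes were filtered with filterByExpr (minimum count 10, total 15) and tested with edgeR 4.0.16 (quasi-likelihood, TMM) in R 4.3.3, with 1 mean for each of 4 groups over 12 libraries. The residual degrees of freedom were 8, and adjustment was Benjamini-Hochberg over 15171 genes. The SE of a log2 fold change was derived from its F statistic (size divided by root F). Groups came from sample titles. Symbols were found for 40254 of 41214 identifiers. Exon lengths are from GENCODE vM21 (GRCm38). DESeq2 1.42.0 was an alternative.

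The members and lists were chosen with earlier results of these data known. Named genes are all 9 members, up to 3 genes per list with the smallest adjusted p and at least 1 CPM, the most abundant that did not pass, every gene where a count is 5 or fewer, plus the 8 closest to Wt1. One gene that this rule names is not reported here. The test was tested on simulated data. Replicates differed by more than counting noise (chi-square per gene from 4.39 to 39.4). Each batch label is shared by 1 endocardial and 1 coronary library. Their deviations from group means had correlations of 0.377, 0.682, 0.367 and 0.478 within E13 batches and 0.38 within E17 batches, across 9481 genes, which are not independent replicates.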

Additional observations from a re-analysis of the deposited data

Results flagged for a closer look

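Among the 4 E13 coronary libraries, Aldh1a2 had 1 value far below the others, 0.78 CPM in replicate 2 against 1.51 to 1.62 CPM. Krt18 had 1 far above, 3.33 CPM in replicate 3 against 2.4 to 2.54 CPM. Chance alone flags about 1 in 20 such groups. The coronary minus endocardial difference changed between stages, by the test of that change, for Aldh1a2 (3.26 on the log2 scale), Upk1b (-2.33), Krt8 (-7.83) and Krt18 (-3.90).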

How the results depend on the processing

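Of 777 values of the 9 genes under the alternatives, 736 kept their direction and their side of the threshold, 18 lost the call, 6 gained it and 17 changed sign, none of the last in a value that had passed. Leaving out 1 library each, the count of 4830 genes that differed between stages in endocardial libraries ranged from 2928 to 5211, with the lowest without E17 endocardial replicate 1 and 3178 without E17 endocardial replicate 2. Sign changes lay in the endocardial stage difference of Aldh1a2 (from -0.12 to 0.25), Krt8 (from -0.12 to 0.43) and Krt18 (from -0.22 to 0.38). They also lay in the change of the coronary minus endocardial difference of Tbx18 (from -0.62 to 0.74), Krt19 (from -0.32 to 0.52) and Lrrn4 (from -2.27 to 1.64), all leaving out 1 library. With the batch as a replicate block that of Lrrn4 was 0.04. Among the edgeR calls of the 9 genes the replicate block changed that of Lrrn4 at E17 alone. For the ratio of Wt1 to the other genes, 0 of 8 passed with the replicate block, where the smallest adjusted p was 0.2, and from 0 to 5 passed without 1 library each. With 1 CPM added in place of 0.1 CPM, the ratios to Krt8 and Krt19 passed too (1.95 and 1.69, exact permutation adjusted p = 0.0327). Where an E17 library was left out, the lone library of its group is assumed to vary like the others. Depth limits Krt8 and Upk1b, with 8 and 16 counts in E17 endocardial and 0 and 7 in E17 coronary libraries.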
